A study of Homo sapiens with 9 samples.

Results

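The genes of glycolysis, lactate export and the response to hypoxia-inducible factor 1 (HIF-1) were followed in THP-1 cells, a human acute monocytic leukaemia line grown in suspension, after 48 h with the plant triterpene lupeol. The set holds 34 genes, chosen by symbol through their Ensembl identifiers on the main chromosomes, of 67927 genes with values in the count table. It covers glucose uptake, each glycolytic step in order, lactate production and transport, PDK1, HIF1A and a group of HIF-1 target genes. RNA-seq was run on 9 libraries: 3 from cells given the lupeol solvent only (control, 0 µmol/L lupeol), 3 from cells given lupeol at 50 µmol/L (lupeol 50) and 3 given 80 µmol/L (lupeol 80). All were grown in RPMI-1640 medium with serum and antibiotics. THP-1 is a single cell line, and whether a group's 3 libraries are separate cultures is not said in the labels. No oxygen deprivation is named for any group.

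Glycolysis splits glucose into pyruvate in a chain of cytosolic enzymes, and lactate dehydrogenase and the monocarboxylate transporters pass the product on as lactate and out of the cell. HIF1A encodes the oxygen-regulated subunit of HIF-1, which prolyl hydroxylases of the EGLN family mark for destruction when oxygen is present. When it accumulates, HIF-1 binds sites with the core ACGTG or GCGTG and raises many glycolytic genes together with genes of angiogenesis and mitophagy; leukaemic and activated monocytic cells are known for heavy use of glycolysis.

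The promoters of the members show how common one form of that core is among them, and 5 are printed because they belong to members that the results below return to or to standard HIF-1 targets. RefSeq promoter windows on GRCh38.p14 (250 bases before an annotated transcript start and 50 after it) were found for 30 of the 34 members, in 58 windows. A gene can have several, and those at alternative starts can lie inside the gene. ACGTG, read on either strand, occurred in 22 of those 58 windows (37.9%), against 21.4% of all 35116 windows. At the level of genes, 18 of 30 members had it in at least 1 window, against 24.9% of 27305 genes. Members had more windows per gene (58 for 30) than all genes (35116 for 27305), so this comparison favours the members. The set also holds known HIF-1 targets by choice. GCGTG on either strand was in 41.4% of member windows and 36.5% of all windows. The palindrome CACGTG, which contains ACGTG on both strands, was in 13.8% of member windows and 7.26% of all windows. A match is a description of letters in a window and not a measured binding site. The 250 upstream bases are given 5′ to 3′ on the strand of the gene, from the window with the most matches where a gene had several, and capitals mark ACGTG on either strand. LDHA lies at chr11:18394313-18394562 (+), PGK1 at chrX:78103998-78104247 (+), SLC16A3 at chr17:82228792-82229041 (+), BNIP3 at chr10:131981924-131982173 (-) and ANKRD37 at chr4:185396591-185396840 (+).
LDHA: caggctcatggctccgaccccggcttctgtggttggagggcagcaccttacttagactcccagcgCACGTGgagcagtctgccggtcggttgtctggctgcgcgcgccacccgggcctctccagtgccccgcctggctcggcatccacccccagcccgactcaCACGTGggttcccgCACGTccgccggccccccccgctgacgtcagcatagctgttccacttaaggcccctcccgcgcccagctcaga
PGK1: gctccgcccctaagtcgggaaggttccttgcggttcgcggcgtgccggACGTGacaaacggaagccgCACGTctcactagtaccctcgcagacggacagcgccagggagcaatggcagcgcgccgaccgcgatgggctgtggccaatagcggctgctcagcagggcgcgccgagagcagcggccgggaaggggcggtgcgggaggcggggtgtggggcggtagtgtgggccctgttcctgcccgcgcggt
SLC16A3: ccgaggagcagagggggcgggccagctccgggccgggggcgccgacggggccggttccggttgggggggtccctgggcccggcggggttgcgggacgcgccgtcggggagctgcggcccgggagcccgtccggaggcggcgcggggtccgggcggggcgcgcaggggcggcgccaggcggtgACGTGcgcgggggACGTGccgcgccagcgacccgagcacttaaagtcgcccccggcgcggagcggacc
BNIP3: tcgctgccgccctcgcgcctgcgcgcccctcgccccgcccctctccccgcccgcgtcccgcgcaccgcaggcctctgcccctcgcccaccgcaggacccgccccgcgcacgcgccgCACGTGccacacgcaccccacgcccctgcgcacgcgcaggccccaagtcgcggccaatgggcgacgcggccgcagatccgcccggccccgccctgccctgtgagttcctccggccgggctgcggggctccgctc
ANKRD37: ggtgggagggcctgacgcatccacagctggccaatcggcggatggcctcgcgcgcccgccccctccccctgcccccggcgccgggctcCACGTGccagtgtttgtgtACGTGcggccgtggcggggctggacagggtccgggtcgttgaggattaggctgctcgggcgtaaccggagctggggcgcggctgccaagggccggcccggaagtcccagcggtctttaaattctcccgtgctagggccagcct

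LDHA carried 3 separate capital runs, 2 of them the palindrome, while PGK1 and SLC16A3 carried 2 runs each. In SLC16A3 these began 68 and 55 bases before the transcript start of that window. The printed bases of SLC16A3, PGK1 and ANKRD37 lie inside their genes as the count table bounds them. The other windows of SLC16A3 and LDHA held no ACGTG in their upstream bases. BNIP3 carried 1 run and ANKRD37 carried 2. The levels of these 5 genes are given below at their place in the pathway.

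Library totals ran from 26134744 to 38430299 counts, and 17568 genes passed the filter on low counts. Of the 34 members, 33 passed and EGLN3 did not. Levels are given as TMM-scaled CPM, the counts scaled to a common library size and depth, in the order control 1, A and B, lupeol 50 replicates 1, 2 and 3, and lupeol 80 replicates 1, 2 and 3; controls A and B have no number because their count columns share a heading. Fold changes are log2 values ± SE from edgeR's quasi-likelihood test over all tested genes, and a gene was called at a Benjamini-Hochberg adjusted p under 0.05. Monocytic markers were present, with 9 of 10 over 1 CPM on average (CD68 was the exception), and their summed level ran from 949 to 1039 CPM in control, 934 to 954 CPM in lupeol 50 and 785 to 917 CPM in lupeol 80 libraries. All 4 erythroid markers were at 0, and no T cell, epithelial or endothelial marker averaged over 1 CPM. In bulk RNA, fewer cells of a kind and less RNA per cell cannot be told apart.

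A pair of libraries stood apart for these genes. Control B was the highest of the 9 libraries in 21 of 33 members (63.6%), against 8.07% of all tested genes. Relative to the mean of the other controls on the log2 scale, control B was higher by a median of 0.42 over the members and 0.00 over all tested genes. It was more than 0.5 higher in 16 members, and lower only in PFKL, PFKFB3 and PKM. The difference reached 1.65 for ADM, 1.63 for BNIP3, 1.48 for ENO2 and 1.05 for SLC2A3, with low counts for ADM and ENO2. The other library was lupeol 80 replicate 1, the deepest of all, which was the lowest of the 9 in 15 of 33 members (45.5%), against 19.6% of all genes. Its levels also depended on gene length more than those of the rest, with a trend spanning 0.91 log2 units between short and long genes, against 0.11 to 0.32 in the other libraries. Some results that rest on either library are also given without it, but not all of them. What set these libraries apart was not tested.

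**Figure D1:**
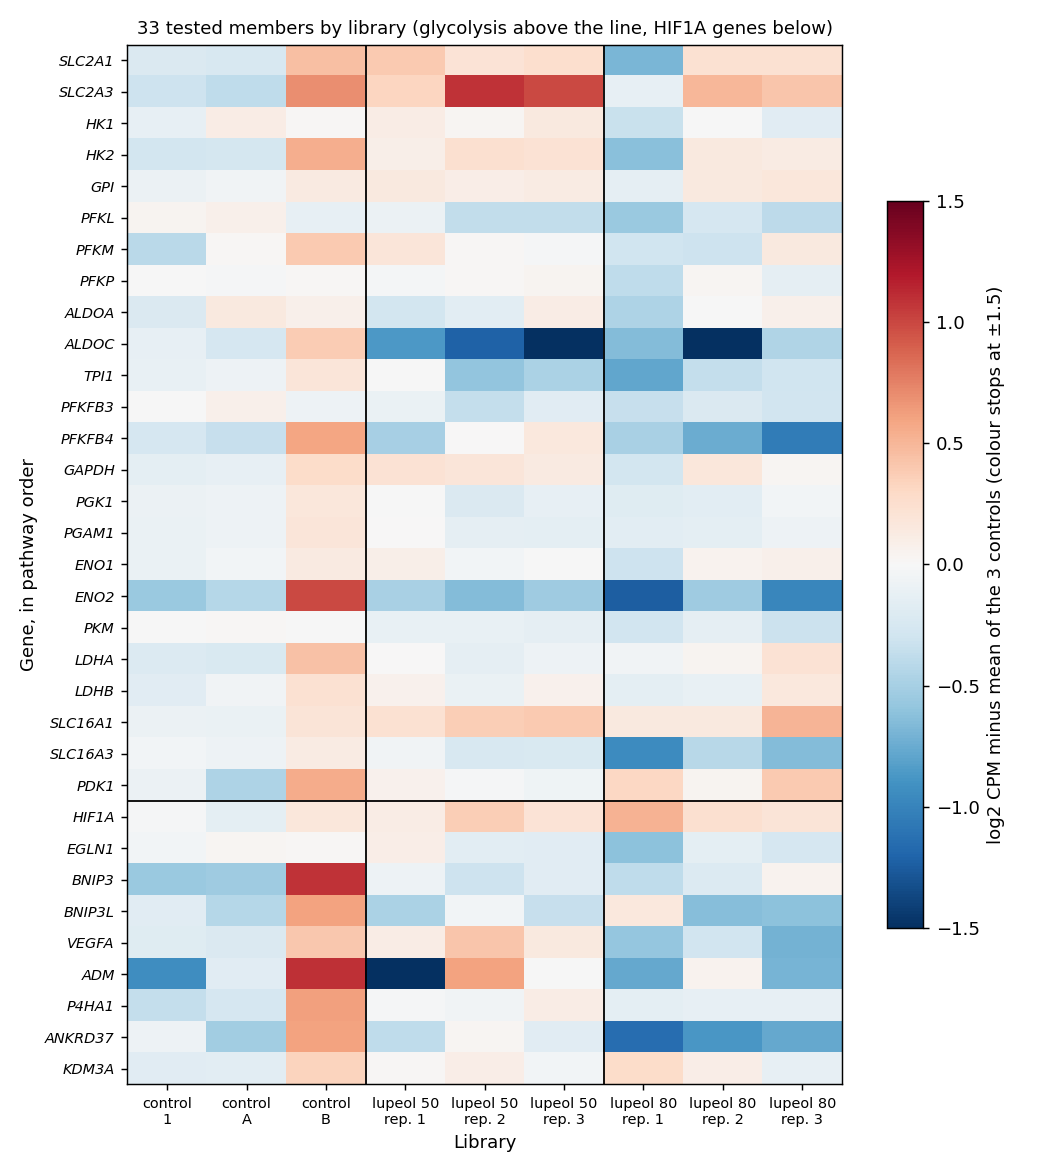
Heat map of the 33 tested members (rows, in pathway order, glycolysis above the line and HIF1A genes below) in the 9 libraries (columns, by dose), as log2 CPM minus the mean of the 3 controls. Control B is red in nearly all rows, 1.08 for BNIP3 and 0.99 for ENO2, while SLC16A3 is blue in the 3 lupeol 80 columns, at -0.94, -0.42 and -0.65.

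Per length, the lower chain of glycolysis dominated the set. Averaged over the 9 libraries and expressed as CPM per kilobase of deposited gene length (RPKM), GAPDH stood at 449.8, ENO1 at 392, PGAM1 at 258, PKM at 168, PGK1 at 139 and LDHA at 129 RPKM. These genes encode glyceraldehyde phosphate dehydrogenase, enolase, phosphoglycerate mutase, pyruvate kinase, phosphoglycerate kinase and the main lactate dehydrogenase subunit of glycolytic cells. Their order depends on the deposited lengths, which were 2396 bases for GAPDH and 2540 for PGAM1 but 8568 for PKM. In CPM the control mean was 1559 for PKM and 689 for PGAM1, the reverse of their order per length. TPI1, which encodes triose phosphate isomerase, stood at 97.0 RPKM and the glucose transporter gene SLC2A1 (GLUT1) at 81.7 RPKM. The lactate transporter genes SLC16A3 (MCT4) and SLC16A1 (MCT1) stood at 35.7 and 18.6 RPKM. Among the HIF-1 targets, P4HA1 at 21.6 RPKM and BNIP3 at 10.8 RPKM were well above ADM at 0.32 RPKM. ALDOA, usually an abundant aldolase gene, had only 1392 counts over all libraries (1.40 RPKM), and an unnamed gene on the same strand that overlaps it had 706. The rule for counting reads shared by overlapping genes is not known, so the ALDOA level is uncertain.

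At the higher dose the set leaned below control, and 1 member was called: the lactate exporter gene SLC16A3 fell to 0.635 of its control level. Of 33 tested members, 26 had a fold change below 0, where 48.9% of all tested genes did, and their median was -0.17 against 0.01 over all genes. Called members numbered 0 higher and 1 lower, where 1.14% of all genes were called, 0.290% higher and 0.854% lower. At an unadjusted p under 0.05, 11 members were lower and 2 higher, against 10.7% and 8.84% of all genes (19.5% in either direction). The 3 lupeol 80 libraries lay wholly below the 3 controls in 10 members and wholly above in 1, against 12.9% and 11.0% of all genes (24.0% in either direction). DESeq2 called 4 members (SLC16A3, PFKL, VEGFA and PFKFB4, all lower) and 5.18% of all genes, and limma-voom called SLC16A3 and 0.990% of all genes. Without control B, 17 of 33 members were below 0, and the median was -0.01 against 0.02 over all genes. At an unadjusted p under 0.05, 4 members were then lower and 6 higher. The share of all genes at that p was not counted for this fit, so these numbers have no background beside them. Without lupeol 80 replicate 1, 21 of 33 members were below 0.

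**Figure D2:**
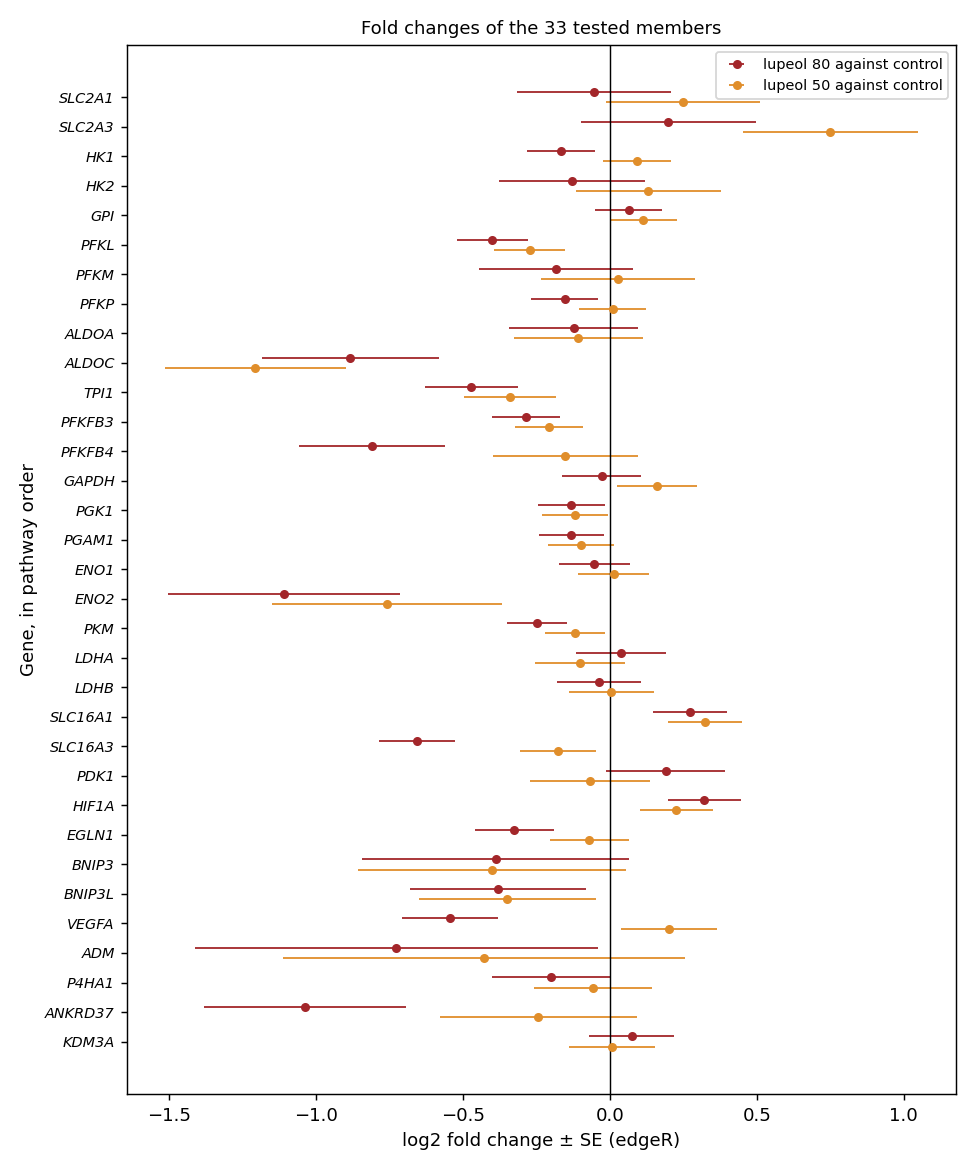
Log2 fold changes (points) with SE (bars) of the 33 tested members in pathway order, for lupeol 80 and lupeol 50 against the same 3 controls. SLC16A3 at lupeol 80 (-0.66) lies farthest from 0 relative to its SE, and BNIP3 and ADM have the widest bars (0.45 and 0.69 at lupeol 80).

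At the lower dose no member was called, as was the case for every gene of the table (0% called). The members split 19 below and 14 above 0, where 50.5% of all genes were below, with a median of -0.07 against 0.00 over all genes. At an unadjusted p under 0.05, 2 members were higher and 3 lower, against 6.40% and 6.02% of all genes (12.4% in either direction). The 3 libraries of lupeol 50 and the controls did not overlap in 4 members, SLC16A1 above and ALDOC, PFKFB3 and PKM below, against 9.55% of genes above and 9.63% below (19.2% in either direction). DESeq2 called 1 member at this dose, ALDOC, and 1.24% of all genes; limma-voom called no gene. Without control B, 10 of 33 members were below 0 and the median was 0.14, against 0.01 over all genes. Both dose comparisons share the 3 control libraries, so control B enters each of them.

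Between the doses, 27 of 33 members were lower at lupeol 80, where 50.0% of all genes were, with a median of -0.13 against 0.00. None was called by edgeR, where 0.0455% of all genes were, 0.0342% higher and 0.0114% lower. At an unadjusted p under 0.05, 5 members were lower and 0 higher, against 8.18% and 7.23% of all genes (15.4% in either direction). The libraries of the doses did not overlap in 6 members, all lower at lupeol 80 (HK1, PKM, SLC16A3, VEGFA, P4HA1 and ANKRD37), against 9.63% of genes lower and 9.42% higher (19.0% in either direction). DESeq2 called VEGFA and SLC16A3 here, and 2.50% of all genes. Limma-voom called no member and 0.0398% of all genes. Tested for any difference among the 3 groups, no member was called by edgeR, against 0.233% of all genes. An unadjusted p under 0.05 was found in 9 members, and the share of all genes at that p was not counted for this test. DESeq2 called 4 members (6.11% of all genes) and limma-voom 0 (0.211% of all genes).

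Glucose enters through facilitative transporters of the SLC2A family. SLC2A1 stood at 432, 426 and 685 CPM in control, 656, 579 and 597 CPM in lupeol 50 and 311, 587 and 588 CPM in lupeol 80 libraries. Control B and lupeol 80 replicate 1 were the extremes, and the groups overlapped. Its log2 fold change was -0.05 ± 0.26 at lupeol 80 and 0.25 ± 0.26 at lupeol 50 (edgeR adjusted p = 0.94 and 0.75). With both of those libraries left out, the values were 0.45 at lupeol 80 and 0.50 at lupeol 50. Those libraries were chosen after their values were seen, so this is a description and no test. SLC2A3, the gene of the high-affinity transporter GLUT3, stood at 6.16, 5.86 and 12.5 CPM in control, 9.62, 16.3 and 15.3 CPM in lupeol 50 and 7.05, 10.9 and 10.3 CPM in lupeol 80 libraries. Every lupeol library exceeded controls 1 and A, and control B lay among the lupeol libraries. SLC2A3 had a fold change of 0.75 ± 0.30 at lupeol 50 (edgeR adjusted p = 0.34) and 0.20 ± 0.30 at lupeol 80 (adjusted p = 0.76). Without control B the lupeol 50 value was 1.20 and was called (adjusted p = 0.042), in a fit that called 141 genes of the table. Per length SLC2A3 made up 1.65% ± 0.260 of the summed level of both transporters in control, 2.42% ± 0.749 in lupeol 50 and 2.09% ± 0.284 in lupeol 80 libraries (SD, n = 3 each).

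Hexokinase then traps glucose as its phosphate. HK2, the inducible hexokinase gene, stood at 41.0, 41.3 and 72.2 CPM in control, 52.8, 58.5 and 57.9 CPM in lupeol 50 and 32.2, 55.1 and 54.1 CPM in lupeol 80 libraries. It showed the same layout as SLC2A1, with control B highest and lupeol 80 replicate 1 lowest. HK2 had a fold change of -0.13 ± 0.25 at lupeol 80 and 0.13 ± 0.25 at lupeol 50 (edgeR adjusted p = 0.82 and 0.87). With both of these left out, again as a description after their values were seen, it was 0.40 at lupeol 80 and 0.45 at lupeol 50. HK1, the gene of the more constitutive hexokinase, ran from 89.9 to 125 CPM over all libraries, and its fold change was -0.17 ± 0.12 at lupeol 80 and 0.09 ± 0.12 at lupeol 50. The share of HK2 in the summed per-length hexokinase level averaged 32.1% ± 7.19 in control, 33.2% ± 1.75 in lupeol 50 and 32.7% ± 4.54 in lupeol 80 libraries (SD, n = 3 each), differences smaller than the spread within groups.

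**Figure D3:**
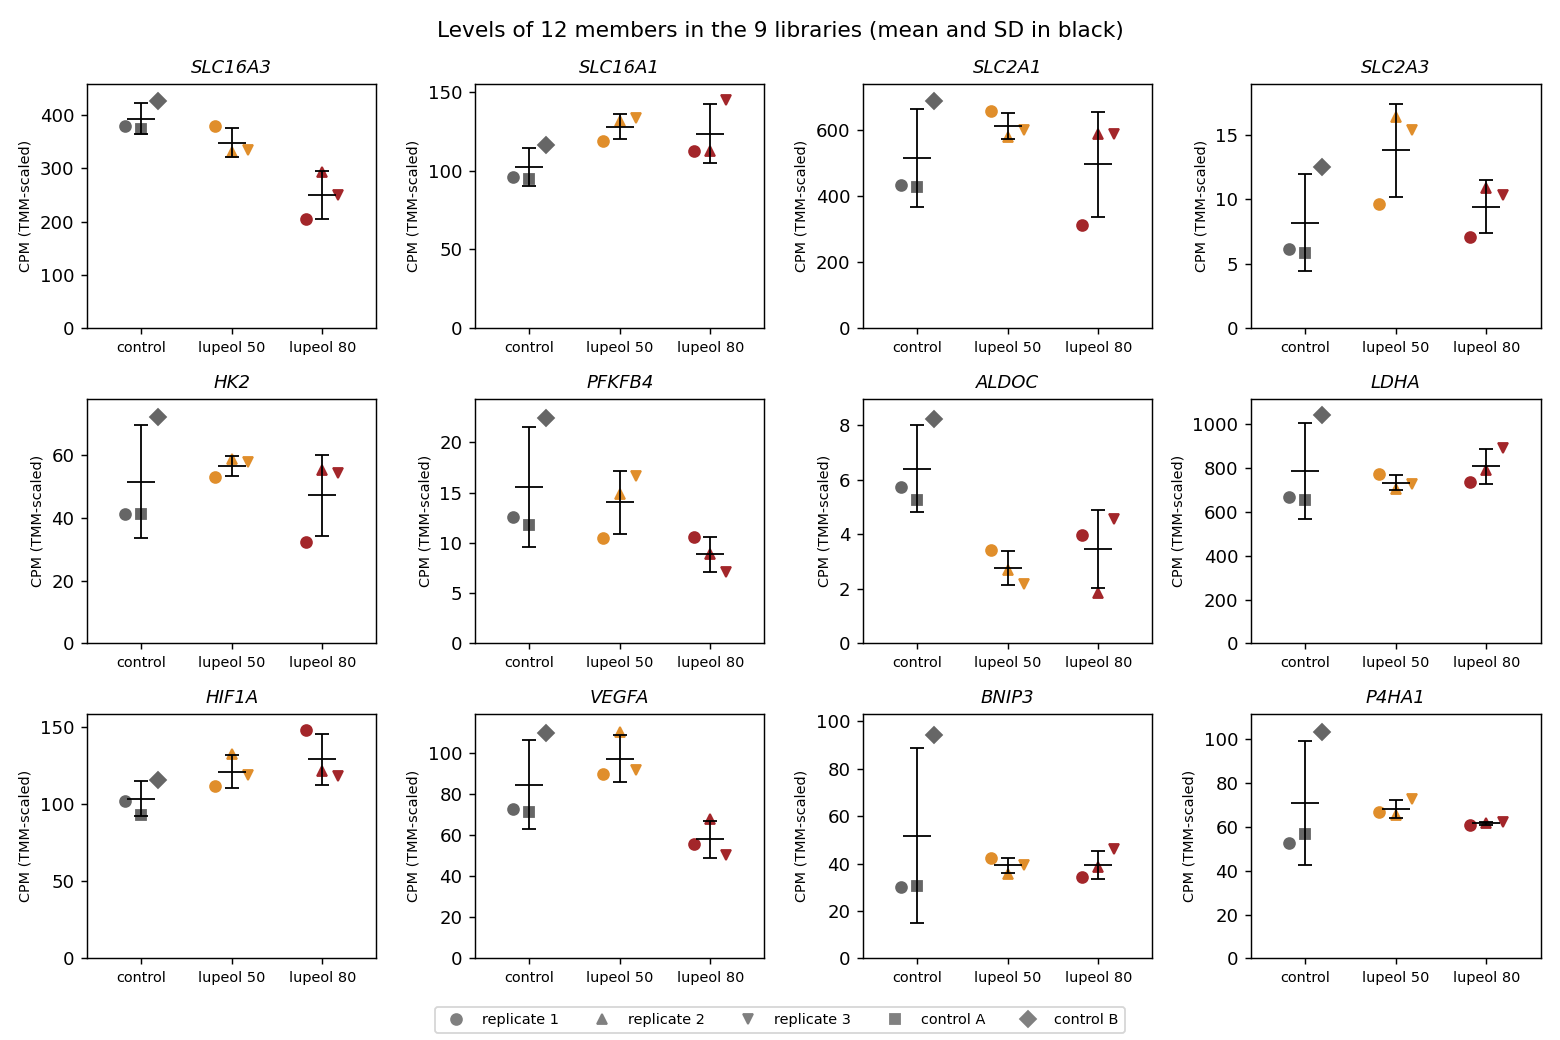
Levels of selected members in CPM (y axes, from 0), by dose along x, with 1 symbol per library and the mean and SD in black. SLC16A3 lies between 204 and 293 CPM at lupeol 80, below all controls (373 to 425 CPM), while the diamond of control B stands at 94.4 CPM for BNIP3 over other controls near 30.5 CPM.

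The upper chain isomerises the sugar phosphate, phosphorylates it again and splits it into trioses. PFKL, a phosphofructokinase subunit gene, ran from 247 to 283 CPM in control, 207 to 252 CPM in lupeol 50 and 182 to 225 CPM in lupeol 80 libraries. All 3 lupeol 80 libraries were below every control, and the fold change was -0.40 ± 0.12 (edgeR adjusted p = 0.092; DESeq2 called it). Control B was the lowest control here, and the value was -0.45 without it. At lupeol 50 the fold change was -0.27 ± 0.12 (edgeR adjusted p = 0.37). PFKP, the platelet-type subunit gene and the other abundant one here, had a fold change of -0.15 ± 0.11, and PFKM, the muscle-type one, of -0.18 ± 0.26 at lupeol 80. PFKM had 866 counts in all against 6510 for the gene SENP1, which overlaps it on the opposite strand. GPI, the gene of glucose phosphate isomerase, ran from 265 to 326 CPM and had a fold change of 0.06 ± 0.11 at lupeol 80.

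Of the aldolase genes, ALDOC (aldolase C, mainly known from brain) stood at 5.74, 5.24 and 8.22 CPM in control, 3.44, 2.68 and 2.19 CPM in lupeol 50 and 3.97, 1.86 and 4.56 CPM in lupeol 80 libraries. Every lupeol library was below every control. The fold change was -1.21 ± 0.31 at lupeol 50 and -0.88 ± 0.30 at lupeol 80 (edgeR adjusted p = 0.20 and 0.13), and DESeq2 called the lower dose. Without lupeol 50 replicate 1 the value at that dose was -1.39 and edgeR called it (adjusted p = 0.045), in a fit that called 427 genes of the table. ALDOA, whose level is uncertain as said, had a fold change of -0.12 ± 0.22 at lupeol 80. TPI1 ran from 288 to 353 CPM in control, 207 to 309.5 CPM in lupeol 50 and 181 to 253 CPM in lupeol 80 libraries. Its lupeol 80 libraries lay wholly below the controls, with a fold change of -0.47 ± 0.16 (edgeR adjusted p = 0.13).

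The PFKFB enzymes make and remove the fructose bisphosphate that activates phosphofructokinase. PFKFB3, whose enzyme mostly makes the activator, stood at 62.4, 66.1 and 59.5 CPM in control, 58.5, 48.9 and 55.6 CPM in lupeol 50 and 49.1, 54.0 and 51.1 CPM in lupeol 80 libraries. Each lupeol library was below each control, by a fold change of -0.29 ± 0.12 at lupeol 80 and -0.21 ± 0.12 at lupeol 50 (edgeR adjusted p = 0.19 and 0.48). PFKFB4, a HIF-1 target in many cell types, stood at 12.5, 11.8 and 22.4 CPM in control, 10.5, 14.9 and 16.6 CPM in lupeol 50 and 10.6, 8.85 and 7.14 CPM in lupeol 80 libraries. The lupeol 80 libraries were all below the lowest control, while lupeol 50 overlapped the controls. PFKFB4 had a fold change of -0.81 ± 0.25 at lupeol 80 (edgeR adjusted p = 0.10; called by DESeq2) and -0.15 ± 0.25 at lupeol 50. Without control B the lupeol 80 value was -0.45.

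The lower chain, from GAPDH to pyruvate kinase, returns the energy invested, and its 6 members all had small or uncertain differences. GAPDH stood at 931, 947 and 1252 CPM in control, 1199, 1168 and 1130.3 CPM in lupeol 50 and 852, 1162 and 1057 CPM in lupeol 80 libraries. PGK1, with the printed HIF-1 type letters upstream, stood at 746, 753 and 896 CPM in control, 789.8, 687 and 729 CPM in lupeol 50 and 702, 710.1 and 776 CPM in lupeol 80 libraries. ENO1 stood at 1927, 2008 and 2252 CPM in control, 2195, 1996 and 2056 CPM in lupeol 50 and 1664, 2127 and 2171 CPM in lupeol 80 libraries. In all of them control B was the highest library and the groups overlapped. At lupeol 80 the fold change was -0.03 ± 0.14 for GAPDH, -0.13 ± 0.11 for PGK1, -0.13 ± 0.11 for PGAM1 and -0.05 ± 0.12 for ENO1 (edgeR adjusted p from 0.555 to 0.936). Without control B the sign turned for GAPDH (0.13) and ENO1 (0.02).

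ENO2, the neuron-type enolase gene, was scarce, at 1.63, 1.79 and 4.90 CPM in control, 1.72, 1.52 and 1.67 CPM in lupeol 50 and 0.993, 1.67 and 1.20 CPM in lupeol 80 libraries. Apart from control B, no library exceeded 1.79 CPM. The lupeol 80 fold change of -1.11 ± 0.39 (edgeR adjusted p = 0.14) was -0.41 without control B, and LRRC23, which overlaps ENO2 on the same strand, held 74.5% as many counts. PKM stood at 1552, 1577 and 1549.6 CPM in control, 1444, 1441 and 1425 CPM in lupeol 50 and 1277, 1419 and 1245 CPM in lupeol 80 libraries. Its groups did not overlap at all: every lupeol 80 library was below every lupeol 50 library, and those were below every control. How many of all genes are ordered in this way was not counted, so the ordering has no background beside it. The steps were small, -0.25 ± 0.10 at lupeol 80 and -0.12 ± 0.10 at lupeol 50 (edgeR adjusted p = 0.20 and 0.68), and leaving out any 1 library kept the lupeol 80 value between -0.30 and -0.20.

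Lactate is made by the dehydrogenase subunits of LDHA and LDHB and carried by MCT1 and MCT4. LDHA stood at 667, 654 and 1041 CPM in control, 773, 703 and 727 CPM in lupeol 50 and 738, 794 and 893 CPM in lupeol 80 libraries. Every lupeol library lay above controls 1 and A and below control B. The fold change was 0.04 ± 0.15 at lupeol 80 and -0.10 ± 0.15 at lupeol 50 (edgeR adjusted p = 0.92 and 0.84), and without control B the lupeol 80 value was 0.30. LDHB ran from 21.8 to 28.8 CPM over all libraries, and LDHA made up 93.9% of the summed per-length level in control, 93.6% in lupeol 50 and 94.3% in lupeol 80 libraries.

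SLC16A3, at chr17:82217934-82261129 on the plus strand (ENSG00000141526.18), encodes MCT4, the low-affinity carrier that glycolytic cells use to export lactate, and is a known HIF-1 target. It stood at 379, 373 and 425 CPM in control, 378, 331 and 333 CPM in lupeol 50 and 204, 293 and 249.6 CPM in lupeol 80 libraries. The lupeol 80 libraries lay below all the others, while lupeol 50 replicate 1 sat among the controls. SLC16A3 averaged 249 ± 44.6 CPM at lupeol 80 and 392 ± 28.6 CPM in control (SD, n = 3 each), a log2 fold change of -0.66 ± 0.13 (edgeR adjusted p = 0.027). At lupeol 50 the average was 347 ± 26.8 CPM and the fold change -0.18 ± 0.13 (adjusted p = 0.61); between the doses it was -0.48 ± 0.13 (adjusted p = 0.11), and among the fits that left out 1 library it was called without lupeol 80 replicate 2 (-0.62, adjusted p = 0.044, with 189 genes of the table called). The size of the lupeol 80 difference varied little when 1 library was left out, from -0.79 to -0.53, but the call did not always hold. It was lost without control 1 (adjusted p = 0.15), control A (0.12), control B (0.057), lupeol 50 replicate 3 (0.060) or lupeol 80 replicate 3 (0.083), and with only the control and lupeol 80 libraries in the fit (-0.66, adjusted p = 0.052). In that order these fits called 0, 1, 197, 43, 43 and 78 genes of the table, against 201 in the main fit. The call held without lupeol 80 replicate 1 (-0.53, adjusted p = 0.041, with 165 genes called), the library lowest for SLC16A3. With that library and control B both left out the value was -0.47. CSNK1D, which overlaps SLC16A3 on the opposite strand and had 29.9% as many counts, had a fold change of -0.31 ± 0.12 at lupeol 80 (adjusted p = 0.16); without knowledge of strand the reads of such a pair cannot be told apart.

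SLC16A1, the gene of the higher-affinity carrier MCT1, leaned the other way. It ran from 94.5 to 116 CPM in control, 119 to 133 CPM in lupeol 50 and 112 to 145 CPM in lupeol 80 libraries. All lupeol 50 libraries were above all controls, and at lupeol 80 replicates 1 and 2 lay just under control B. The fold change was 0.27 ± 0.13 at lupeol 80 and 0.32 ± 0.13 at lupeol 50 (edgeR adjusted p = 0.24 and 0.31). SLC16A3 thus made up less of the summed per-length level of both carriers with lupeol, at 73.1%, 73.0% and 71.6% in control, 68.6%, 63.3% and 63.2% in lupeol 50 and 55.5%, 64.2% and 54.2% in lupeol 80 libraries. The means were 72.6% ± 0.841 in control, 65.1% ± 3.10 in lupeol 50 and 58.0% ± 5.41 in lupeol 80 (SD, n = 3 each). Every lupeol library was below every control, control B included, although lupeol 80 replicate 2 lay within the lupeol 50 range. The share was not tested, and because it contains SLC16A3 itself it partly restates the lower level of that gene. PDK1, whose kinase holds pyruvate back from the mitochondria and which HIF-1 raises, stood at 16.0, 12.2 and 24.9 CPM in control, 17.7, 16.8 and 16.2 CPM in lupeol 50 and 21.0, 17.4 and 22.2 CPM in lupeol 80 libraries. Control B was again the highest, and PDK1 had a fold change of 0.19 ± 0.20 at lupeol 80 (edgeR adjusted p = 0.64) and 0.52 without control B.

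HIF1A itself stood at 102, 92.9 and 115 CPM in control, 111, 133 and 119 CPM in lupeol 50 and 148, 121 and 118 CPM in lupeol 80 libraries. All lupeol 80 libraries were above all controls, and lupeol 80 replicate 1 was the highest. The fold change was 0.32 ± 0.12 at lupeol 80 and 0.23 ± 0.12 at lupeol 50 (edgeR adjusted p = 0.17 and 0.47). HIF1A is the only member whose lupeol 80 libraries lay wholly above the controls, and its RNA says nothing of the protein, which is set mainly by its degradation. EGLN1, the gene of the main HIF prolyl hydroxylase, ran from 48.1 to 50.3 CPM in control, 44.0 to 52.8 CPM in lupeol 50 and 32.2 to 44.7 CPM in lupeol 80 libraries. It had a fold change of -0.33 ± 0.13 at lupeol 80 (edgeR adjusted p = 0.19) and -0.20 without lupeol 80 replicate 1. EGLN3, a second hydroxylase gene that HIF-1 strongly induces in many cells, had 19 counts in all and was not tested. Of these, control B held 11, controls 1 and A held 0, the lupeol 50 libraries held 2, 0 and 0, and the lupeol 80 libraries held 4, 2 and 0.

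Among the 9 tested genes of HIF1A and its targets, 7 were below 0 at lupeol 80, with a median of -0.38, where 48.9% of all genes were below. Without control B, 4 of the 9 were below 0 and their median was 0.09. VEGFA, the gene of the angiogenic growth factor, stood at 72.9, 71.4 and 109.7 CPM in control, 89.7, 111 and 91.7 CPM in lupeol 50 and 55.6, 67.9 and 50.6 CPM in lupeol 80 libraries. The lupeol 80 libraries were below all others, and the lupeol 50 libraries were above controls 1 and A. VEGFA had a fold change of -0.54 ± 0.16 at lupeol 80 against control (edgeR adjusted p = 0.095), 0.20 ± 0.16 at lupeol 50 (adjusted p = 0.65) and -0.75 ± 0.16 between the doses (adjusted p = 0.074). DESeq2 called it at lupeol 80 against control and between the doses. In edgeR the difference between the doses was called without control B (-0.75, adjusted p = 0.036) and without lupeol 80 replicate 2 (-0.88, adjusted p = 0.041). Against control, the lupeol 80 value was -0.31 without control B.

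ADM, which encodes the vasodilator peptide adrenomedullin, was barely detected, at 0.38, 0.69 and 1.76 CPM in control, 0.103, 1.23 and 0.779 CPM in lupeol 50 and 0.433, 0.816 and 0.46 CPM in lupeol 80 libraries. At this depth no difference was detectable for it (-0.73 ± 0.69 at lupeol 80), and its sign turned without control B (0.09). BNIP3 and BNIP3L encode receptors that mark mitochondria for mitophagy. BNIP3 stood at 30.3, 30.7 and 94.4 CPM in control, 42.3, 35.8 and 39.6 CPM in lupeol 50 and 34.3, 38.5 and 46.0 CPM in lupeol 80 libraries. Control B was far above the rest, and every lupeol library was above controls 1 and A. The fold change was -0.39 ± 0.45 at lupeol 80 and -0.40 ± 0.46 at lupeol 50 (edgeR adjusted p = 0.70 and 0.78); without control B the lupeol 80 value was 0.38. Processed copies of BNIP3 elsewhere in the genome held 8.35% as many counts as the gene, and how reads that align to several places were treated is not known. BNIP3L ran from 21.1 to 49.9 CPM and had a fold change of -0.38 ± 0.30 at lupeol 80.

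ANKRD37, a small ankyrin repeat gene with 2 capital runs upstream, stood at 2.09, 1.52 and 3.40 CPM in control, 1.68, 2.27 and 1.96 CPM in lupeol 50 and 0.968, 1.18 and 1.27 CPM in lupeol 80 libraries. Its lupeol 80 libraries were below all others. The fold change was -1.04 ± 0.34 at lupeol 80 (edgeR adjusted p = 0.12), -0.66 without control B, and -0.79 ± 0.34 between the doses (adjusted p = 0.29). UFSP2, which overlaps ANKRD37 on the opposite strand, had a fold change of 0.20 ± 0.17 at lupeol 80. P4HA1, a collagen prolyl hydroxylase subunit gene, ran from 52.6 to 103 CPM in control, 65.1 to 72.7 CPM in lupeol 50 and 60.9 to 62.1 CPM in lupeol 80 libraries. It lay above controls 1 and A in every lupeol library and below control B, with a fold change of -0.20 ± 0.20 at lupeol 80. KDM3A, a histone demethylase gene, ran from 53.3 to 76.0 CPM and had a fold change of 0.07 ± 0.14 at lupeol 80.

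The dependence on control B differed by gene. At lupeol 80 without it, 9 members changed sign, which were BNIP3 (0.38), SLC2A1 (0.21), HK2 (0.20), P4HA1 (0.18), GAPDH (0.13), LDHB (0.09), ADM (0.09), PFKM (0.04) and ENO1 (0.02). PDK1, LDHA and SLC2A3 moved further above 0, and ENO2, VEGFA, PFKFB4 and ANKRD37 moved toward 0 but stayed below. SLC16A3 (-0.66, and -0.59 without control B), PKM (-0.25 and -0.25), EGLN1 (-0.33 and -0.31), PFKL (-0.40 and -0.45) and PFKFB3 (-0.29 and -0.32) were about as large without that library. In these 5 genes control B differed from the mean of the other controls by only -0.18 (PFKL) to 0.18 (SLC16A3) on the log2 scale. Leaving it out could therefore change their values little. Of the 5, edgeR called only SLC16A3. Control B was also close to the other controls in HK1 (0.02 higher) and PFKP (0.03 higher). Their fold changes were smaller, at -0.17 and -0.15.

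**Figure D4:**
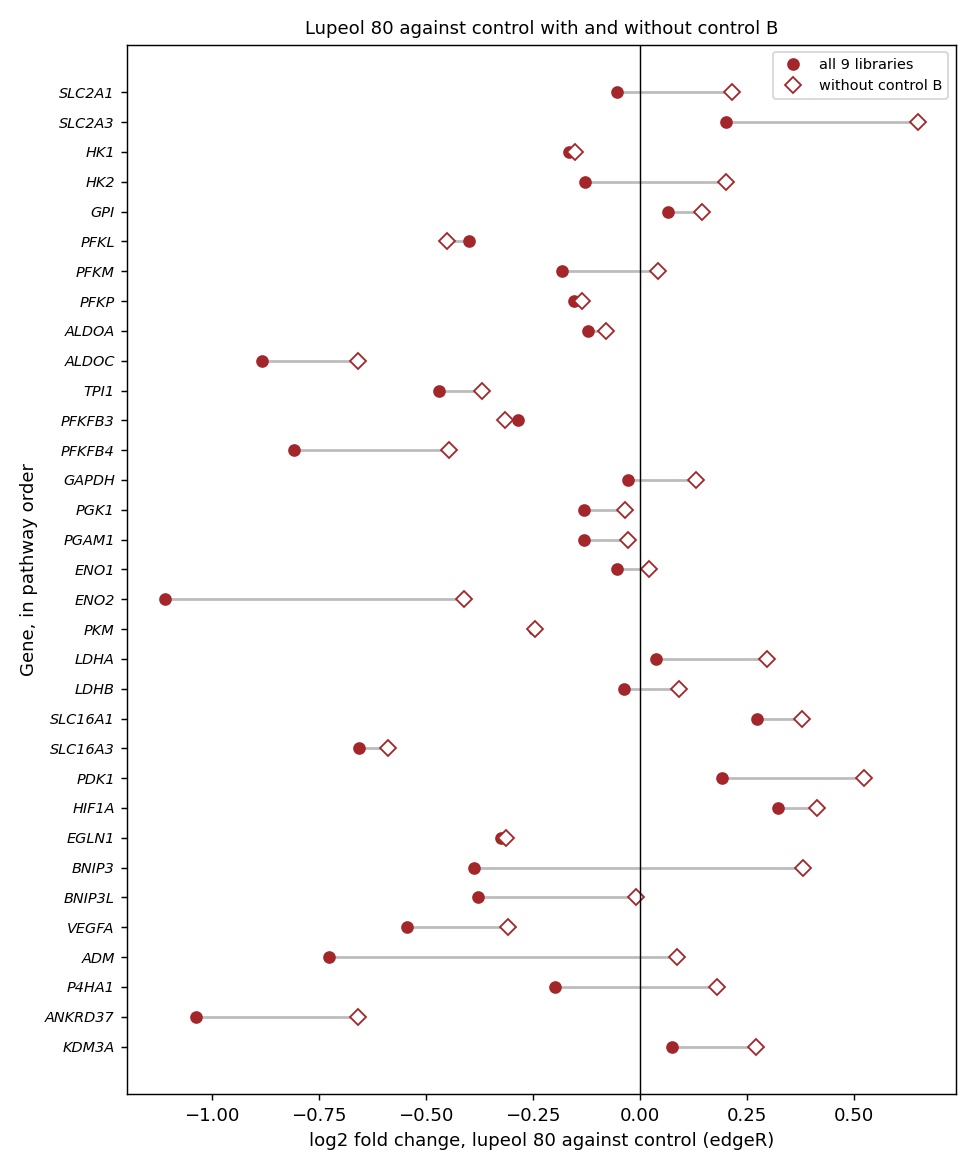
Log2 fold change of lupeol 80 against control for the 33 tested members in pathway order, with all 9 libraries (filled points) and without control B (open diamonds). BNIP3 crosses 0 (-0.39 and 0.38) while PKM keeps its place (-0.25 both times).

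Genes around the pathway, from lists of other isozymes and regulators, held no called gene at lupeol 80 in edgeR or limma-voom. DESeq2, which called 5.18% of all genes, called ENO3, LDHD, PLOD1, ZNF395 and TXNIP. The unadjusted counts below stand beside 10.7% of all genes lower and 8.84% higher. Of 15 tested other glycolysis isozymes and transporters, 8 were below 0 and 7 above, and 5 were lower and 2 higher at an unadjusted p under 0.05. ENO3, the muscle-type enolase gene, was at -0.64 ± 0.19 (edgeR adjusted p = 0.095) and LDHD, a dehydrogenase gene for the other lactate isomer, at -0.73 ± 0.23 (adjusted p = 0.11). Of 37 tested genes of HIF control and other hypoxia targets, 18 were below and 19 above 0, with 5 lower and 3 higher at an unadjusted p under 0.05. PLOD1, a collagen lysyl hydroxylase gene, was at -0.37 ± 0.11 (adjusted p = 0.085) and ZNF395 at -0.82 ± 0.25 (adjusted p = 0.099). Among 14 genes of pyruvate entry to mitochondria, 8 were above 0, with 1 higher and 0 lower at an unadjusted p under 0.05. PDK3, another kinase of the PDK1 family, was at 0.30 ± 0.14 (adjusted p = 0.25), with PDK4 at 1.13 ± 0.63 (adjusted p = 0.38). Of 7 pentose phosphate genes, 3 were above 0 (1 at an unadjusted p under 0.05), among them TALDO1, the gene of transaldolase (0.30 ± 0.11, adjusted p = 0.17).

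Of 6 genes of glucose sensing, 5 were below 0 at lupeol 80, 2 of them at an unadjusted p under 0.05. TXNIP, a glucose-induced gene whose product restrains glucose uptake, stood at 201, 217 and 261 CPM in control, 215, 225 and 204 CPM in lupeol 50 and 179.7, 128 and 87.3 CPM in lupeol 80 libraries. The lupeol 80 libraries were below all others, and the fold change was -0.78 ± 0.21 (edgeR adjusted p = 0.085). MLXIP, the gene of a glucose-responsive transcription factor, was at -0.30 ± 0.14 (adjusted p = 0.25). At lupeol 50 these lists held no called gene in edgeR or limma-voom, and DESeq2 called the hexokinase gene HK3. Below 0 were 10 of 15 other isozymes, 18 of 37 HIF control and hypoxia genes, 5 of 14 pyruvate entry genes, 7 of 7 pentose phosphate genes and 5 of 6 glucose sensing genes. At an unadjusted p under 0.05, 3 isozymes, 4 hypoxia genes, 1 pentose phosphate gene and 1 glucose sensing gene were lower and 3 hypoxia genes were higher, against 6.02% of all genes lower and 6.40% higher.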

How the data were processed

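RNA-seq counts of 9 THP-1 libraries were used as deposited. The authors deposited raw counts per gene with gene lengths, in 1 table of 67928 genes, 1 of them with empty values and left out. The submitters' processing notes name Bowtie 0.12.2 and the mouse build mm8, but the table holds human genes: all 35993 of its identifiers found in GENCODE release 29 have the same GRCh38 coordinates there. The sources used here do not give the counting tool, strand setting or treatment of multiply aligned reads. Groups came from the sample descriptions; 1 label of lupeol 50 has mol/L as its unit and was read as 50 µmol/L. Control A and control B differed by more than sampling (chi-square over its degrees of freedom 25.0), as did every replicate pair.

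Counts were filtered (filterByExpr), TMM-scaled and tested with edgeR 4.0.16 in R 4.3.3, all 9 libraries in 1 fit with robust quasi-likelihood dispersion, and adjusted over 17568 genes. The SE is the log2 fold change over the square root of the F statistic. DESeq2 1.42.0, limma-voom 3.58.1, other scalings and filters, removal of gene-length trends and left-out libraries were alternatives. The code was tested on simulated data. The members, lists and naming rule were chosen with earlier results of these data known: values of every library for 1 or 2 members per role, for called members and for members whose lupeol libraries lay wholly on one side of the controls with a log2 fold change of at least 0.5, and ranges otherwise. P-values reflect the spread among these 9 libraries alone, which may be purely technical.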

Additional observations from a re-analysis of the deposited data

How the results depend on the processing

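No paired analysis was possible because the labels give no replicate numbers shared between groups. Under other scalings, a stricter filter, removal of gene-length trends and limma-voom, the counts of called members stayed as reported. Other settings moved the calls of the whole table as well. At lupeol 80 against control, where the reported count was 1 member of 201 genes called, there were 5 members of 861 genes with no filter on low counts, 0 of 78 with only the 2 groups compared, 4 of 910 with DESeq2 and 3 of 860 with control B and lupeol 80 replicate 1 both left out. That pair was chosen after its values were seen. At lupeol 50 against control there were 2 of 520 with no filter, 1 of 218 with DESeq2 and 4 of 913 with both libraries left out. Between the doses there were 3 of 659 with no filter and 2 of 439 with DESeq2. For any difference there were 6 of 1423 with no filter, 4 of 1073 with DESeq2 and 4 of 924 with both left out. The cause was not tested. Leaving out 1 library at a time gave 0 to 1 called members at lupeol 80, 0 to 1 at lupeol 50, 0 to 2 between the doses and 0 to 3 for any difference. In that order, the same fits called 0 to 386, 0 to 427, 1 to 189 and 1 to 654 genes of the table. Over these fits the members' median ran from -0.26 to -0.01 at lupeol 80, -0.15 to 0.14 at lupeol 50 and -0.16 to -0.04 between the doses. With both left out the median was 0.063 at lupeol 80 and 0.12 at lupeol 50.

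With both left out, the sign at lupeol 80 turned for 10 members: BNIP3 (0.47), SLC2A1 (0.45), HK2 (0.40), ADM (0.25), GAPDH (0.24), P4HA1 (0.18), LDHB (0.14), ENO1 (0.12), PFKM (0.11) and ALDOA (0.063). At lupeol 50 it turned for 8 members, among them BNIP3 (0.36), PFKFB4 (0.20) and LDHA (0.14); without control B alone it turned for 9 members at each dose. Members whose sign turned when 1 library was left out ranged, at lupeol 80, from -0.079 to 0.30 for LDHA (0.35 with both left out), -0.016 to 0.52 for PDK1, -0.11 to 0.06 for ENO1, -0.19 to 0.21 for SLC2A1, -0.27 to 0.20 for HK2, -0.67 to 0.38 for BNIP3, -1.10 to 0.09 for ADM, -0.13 to 0.13 for GAPDH, -0.13 to 0.09 for LDHB, -0.38 to 0.18 for P4HA1, -0.37 to 0.04 for PFKM, -0.23 to 0.03 for ALDOA and -0.028 to 0.27 for KDM3A. For members with a lupeol 50 value in the text, they ranged from -0.011 to 0.46 for HK2, -0.32 to 0.21 for PFKFB4, -0.67 to 0.37 for BNIP3 and -0.21 to 0.16 for LDHA. As shares of counts rather than of per-length levels, SLC16A3 made up 79.4% in control, 73.0% in lupeol 50 and 66.7% in lupeol 80 libraries. Low counts limit EGLN3, ADM, ANKRD37, ENO2 and ALDOA, and differences near the SE given beside each gene were not detectable.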
